A study of Sus scrofa with 5 samples.

Results

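The miR-532, miR-362 and miR-500 names of the pig are the subject here. They were selected on their measured values in these libraries, because they stood high in semen. The rule took every listed name that reads miR-532, miR-362 or miR-500 after the species prefix, whatever its arm suffix. It found 4 of 411 names: ssc-miR-532-5p, ssc-miR-532-3p, ssc-miR-500 and ssc-miR-362, written below without the prefix. Their place in semen is therefore given as a description. Small RNA was sequenced from exosomes, the small vesicles that cells release, of 5 body fluids of Rongchang pigs at postnatal day 180. The groups were semen, serum, plasma, urine and bile exosomes, all untreated as far as the labels say, with 1 library per fluid. The sources used here do not give the number of animals behind each library, or whether they were pooled or shared between fluids. Their sex is not given either, and only for semen does the fluid itself settle it as male.

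A microRNA (miRNA) is cut from a hairpin precursor, and either strand of the hairpin, called the 5p or the 3p arm, can be loaded into an Argonaute protein to repress mRNAs that pair with its seed. Genes of clustered miRNAs can be transcribed together as 1 precursor, after which each hairpin is processed and each mature strand is stabilised on its own. In human, the miR-532, miR-500 and miR-362 genes lie together in an intron of CLCN5, the gene of a chloride/proton exchanger of kidney tubule cells, on the X chromosome. RefSeq's annotation of the pig assembly Sscrofa11.1 also puts MIR532, MIR500 and MIR362 next to each other on chromosome X, in that order, between USP27X and CLCN5. In that annotation none of the 3 lies inside the annotated span of CLCN5, so the intronic position could not be read from it for the pig. Names of the human cluster's further members, miR-188, miR-501, miR-502 and miR-660, were looked for and 0 were found in the tables used here.

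The libraries held 26522 to 2284926 miRNA counts, the fewest in urine and the most in semen. Listed miRNAs made up 21.2% of the semen library, 4.47% of serum, 16.0% of plasma, 0.246% of urine and 15.9% of bile, against the library totals behind the authors' RPM, reads scaled to a total of 1000000. Every value in the files was 0 or at least 10, so a miRNA listed at 0 may have had up to 9 reads. Of the markers looked up, the male germ cell miRNA miR-34c had 604 counts in semen and was listed at 0 in serum, plasma, urine and bile. In urine, the shallowest library, a level like that of semen would have gone unlisted. Of the other germ cell names, miR-202-5p had 11 counts in semen and miR-202-3p was listed at 0. The hepatocyte miRNA miR-122 had 91481 counts in bile, 11836 in plasma, 1842 in serum, 32 in semen and 10 in urine. Of the other hepatocyte names, miR-885-5p had 18 counts in bile and miR-885-3p was listed at 0. The erythrocyte miRNA miR-451 had 40127 counts in serum. The epithelial miRNAs miR-204 and miR-429 were above 0 in semen, urine and bile and listed at 0 in serum and plasma. The 4 skeletal muscle names took 0.00149% of semen counts and 0.0550% to 1.08% of those of the other fluids. These names did not go together: miR-1 had 4827 counts in bile, where both miR-133a arms were listed at 0, as they were in urine and semen. Among the 4 leukocyte names 1 was above 0 in semen, and 4 were above 0 in each of serum, plasma and bile, while all were listed at 0 in urine. The 3 red blood cell names together took 0.000525% of semen counts, 10.21% of serum, 0.583% of plasma, 0.468% of urine and 0.417% of bile, and the part of blood cells in the serum and plasma levels below was not tested.

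miR-532-5p, the 5p strand of miR-532, which in human cells is known to repress the transcription factor gene RUNX3, carried most of the cluster's counts. It had 5807 counts in semen, 954 in serum, 154 in plasma, 94 in urine and 534 in bile. As a share of all miRNA counts this was 0.254% in semen (exact Clopper-Pearson 95% interval 0.248 to 0.261), 0.202% in serum (0.189 to 0.215), 0.0133% in plasma (0.0113 to 0.0156). It was 0.354% in urine (0.287 to 0.434) and 0.0319% in bile (0.0293 to 0.0347). Semen, serum and urine thus lay within a narrow range, and plasma and bile lay far below them. Fewer vesicles carrying a miRNA and less of it per vesicle cannot be told apart in such libraries. All intervals cover counting error only, and since each fluid has 1 library, differences could not be checked against replicates and carry no p-value.

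On the CPM scale, counts scaled to a miRNA total of 1000000, miR-532-5p stood at 2541 in semen, 2016 in serum, 133.5 in plasma, 3544 in urine and 319 in bile. Its level in semen was 0.717 times that in urine (exact conditional 95% interval 0.585 to 0.889) and 1.26 times that in serum (1.18 to 1.35). Each step in the order urine, semen, serum, bile, plasma was larger than counting error. The name chosen as high in semen was therefore highest in urine as a share of miRNAs. Of the 237 miRNAs listed above 0 somewhere, 36 (15.2%) had their highest listed CPM in semen and 37 (15.6%) in urine. With a listed 0 in another fluid read as 10 counts, which is 377 CPM in urine, 12 (5.06%) were still highest in semen.

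On the authors' RPM scale the picture was another one. miR-532-5p stood at 537.6 RPM in semen, 90.1 in serum, 21.4 in plasma, 8.71 in urine and 50.6 in bile. Semen was then highest, at 5.97 times serum (5.57 to 6.40), and urine was lowest. On that scale 83 of the 237 miRNAs (35%) were highest in semen and 4 (1.69%) in urine, where listed miRNAs took the smallest part of the library.

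miR-500, whose name gives no arm, was the second most abundant of the cluster in every library. It had 547 counts in semen, 100 in serum, 54 in plasma, 11 in urine and 36 in bile, and its urine count lies just above the lowest value the files list. Its CPM was 239 in semen (220 to 260), 211 in serum (172 to 257), 46.8 in plasma (35.2 to 61.1). It was 415 in urine (207 to 742) and 21.5 in bile (15.1 to 29.8). Semen, serum and urine could not be put in order: semen was 0.577 times urine (0.320 to 1.16) and 1.13 times serum (0.914 to 1.42). In CPM plasma and bile were lower than these 3, with bile at the bottom. In RPM miR-500 stood at 50.6 in semen, 9.44 in serum, 7.49 in plasma, 1.02 in urine and 3.41 in bile, so that semen was 5.36 times serum (4.33 to 6.71).

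**Figure D1:**
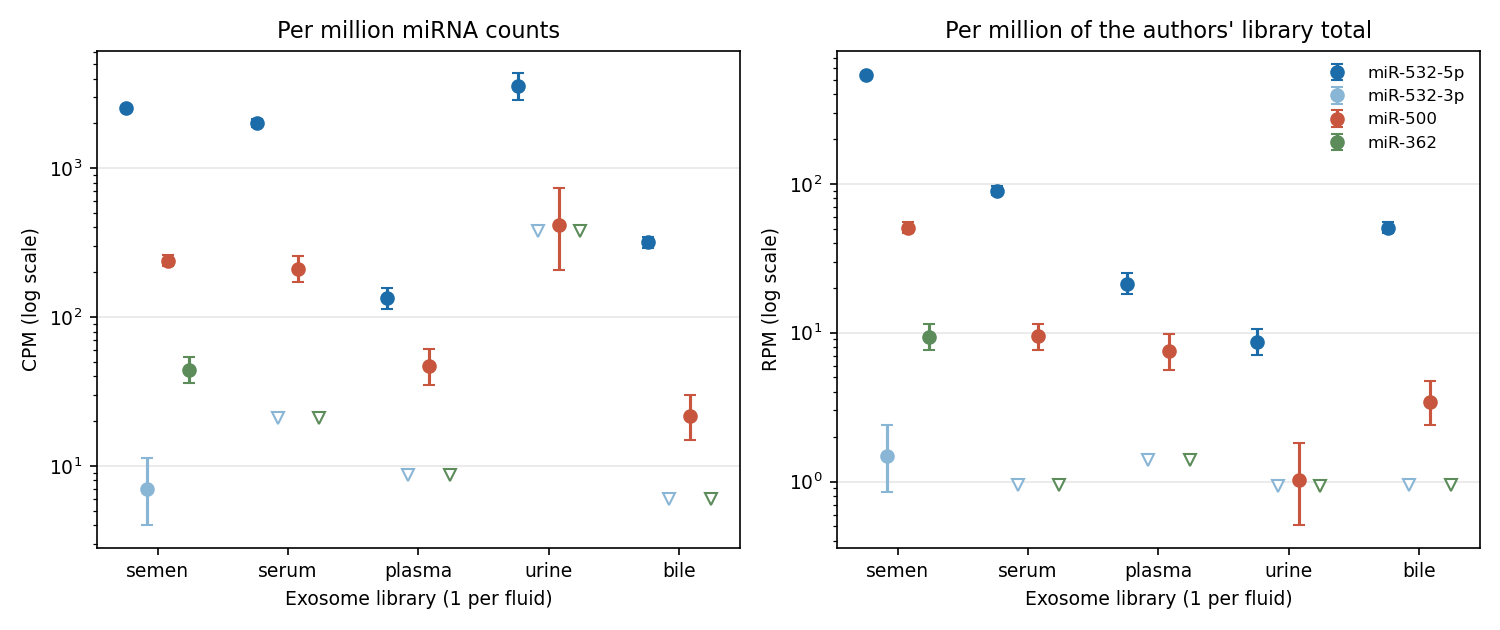
Level of each name in each exosome library, as CPM of the miRNA total (left) and as RPM of the authors' library total (right), both on log axes. Filled points carry 95% counting intervals, and open triangles mark names listed at 0, drawn at the level of 10 counts. miR-532-5p reached 3544 CPM in urine and 2541 CPM in semen, but 8.71 RPM in urine and 537.6 RPM in semen.

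miR-362, which in human cells is known to repress the deubiquitinase gene CYLD, had 101 counts in semen and was listed at 0 in serum, plasma, urine and bile. Its semen level was 44.2 CPM (36.0 to 53.7). With a listed 0 taken as 10 counts, that level was at least 2.09 times serum, at least 5.10 times plasma and at least 7.40 times bile, and the counting intervals of these bounds began at 1.09, 2.66 and 3.86. At its share in semen, 20.9 counts would have been seen in serum, 51.0 in plasma, 1.17 in urine and 74.0 in bile, so in urine a level like that of semen was not detectable at this depth. The plasma bound moved to 0.902 under edgeR's TMM library sizes and to 0.932 under DESeq2 size factors, and then leaves the direction against plasma unknown.

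miR-532-3p, the opposite strand of the miR-532 hairpin, had 16 counts in semen, 7.002 CPM (4.002 to 11.4), and was listed at 0 elsewhere. In semen miR-532-5p had 363 counts for each count of its 3p partner (223.3 to 635). At that ratio the 3p arm would have had 2.63 counts in serum, 0.424 in plasma, 0.259 in urine and 1.47 in bile. All 4 lie under the lowest listed count, so whether the arm ratio differs between fluids was not detectable. Semen listed all 4 names, and serum, plasma, urine and bile listed 2 each. Among all 237 miRNAs, 174 were listed in semen, 180 in serum, 161 in plasma, 84 in urine and 179 in bile. The names were picked as high in semen, so their number there is a description. Of the 237 miRNAs 10 (4.22%) were listed in semen alone, miR-362 and miR-532-3p among them.

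The comparisons of semen with each other fluid were those on which the names were picked, and nothing is read from their counts. At 2-fold or more, 3 of the 4 names were higher in semen than in plasma, where 41.5% of all miRNAs tested were, and 3 were higher than in bile, where 29.8% were. Against serum 1 name, miR-362, passed, beside 17.1% of all miRNAs. Against urine 0 passed, beside 4.42%. In RPM 3 of 4 passed against every fluid, beside 41.2% of all miRNAs for serum, 45.2% for plasma, 79.6% for urine and 35.1% for bile. miR-532-3p never passed, because its 16 counts allow no larger bound.

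Semen exceeded bile and serum under each of 5 scalings for both of the names that were listed in all fluids. The scalings were CPM, CPM without each library's most abundant miRNA in the total, TMM, DESeq2 size factors and the authors' RPM. miR-532-5p was 7.31 to 11.46 times bile and 1.26 to 5.97 times serum. miR-500 was 10.21 to 16.0 times bile and 1.13 to 5.36 times serum, where the lowest value did not exceed counting error. Against plasma, miR-532-5p stayed higher in semen, at 3.37 to 25.2 times. miR-500 did not: the ratio was 0.905 under TMM and 0.935 under DESeq2 size factors. Against urine miR-532-5p moved to 1.42 times with TMM (1.16 to 1.76), 1.08 times with DESeq2 size factors (0.884 to 1.34), 1.18 times without the most abundant miRNAs (0.966 to 1.47) and 61.7 times in RPM.

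**Figure D2:**
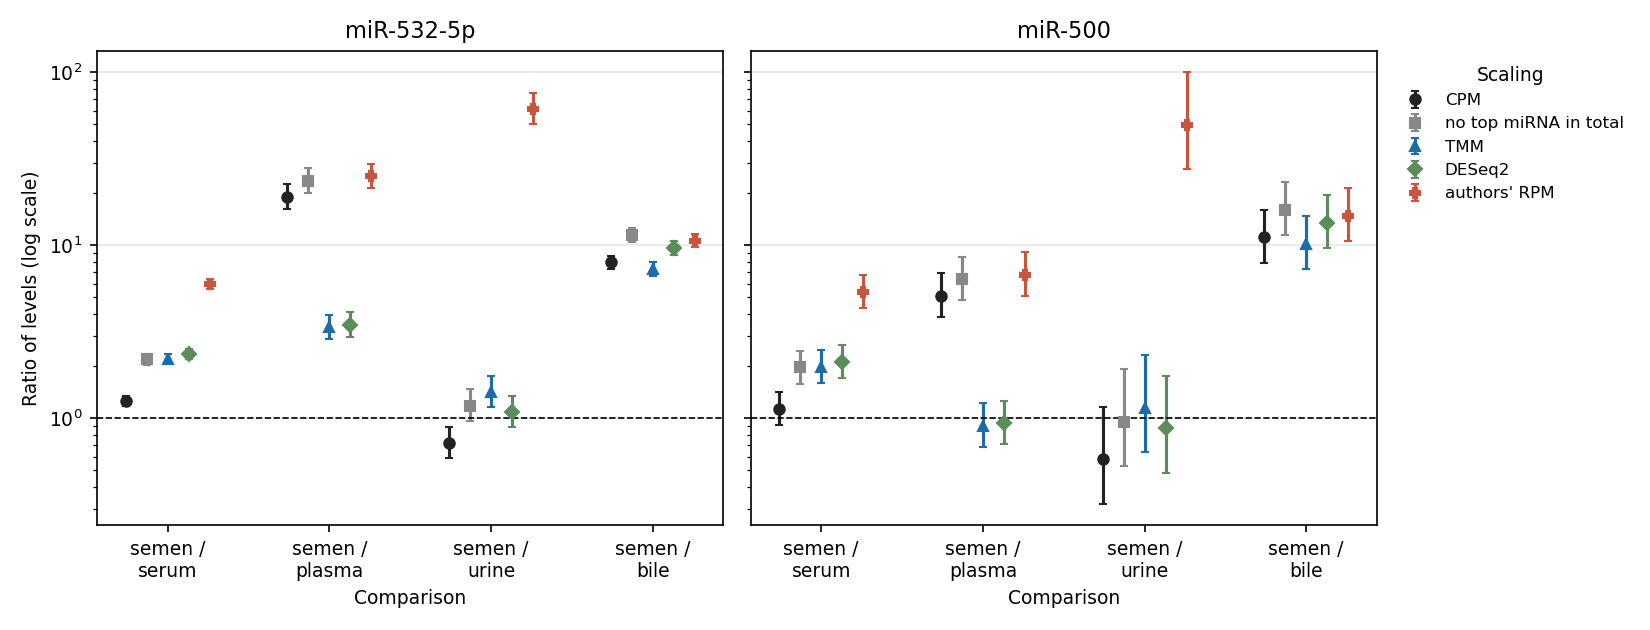
Ratio of the semen level to the level in serum, plasma, urine and bile for miR-532-5p (left) and miR-500 (right) under 5 scalings, on a log axis with 95% counting intervals. The dashed line marks equal levels. Against bile every point lies above the line, while against urine miR-532-5p runs between 0.717 and 61.7 times.

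Since the whole library moves with its scaling, each ratio was also divided by the median ratio of the miRNAs above 0 in both libraries. The result is the same under every scaling. The median log2 ratio of semen to urine was -0.90 in CPM and 5.53 in RPM, and that of semen to serum was -1.44 in CPM and 0.80 in RPM. Relative to that median, miR-532-5p was 3.43 times higher in semen than in serum (3.20 to 3.68), above 77.6% of the 143 miRNAs in both. It was 10.9 times higher than in plasma (9.27 to 12.9), above 81.4% of 118, and 7.94 times higher than in bile (7.27 to 8.69), above 90.3% of 145. Against urine it was 1.34 times higher (1.09 to 1.66), above 64.9% of 77. miR-500 was 3.08 times higher than in serum (2.49 to 3.85), above 73.4% of the same miRNAs, and 2.92 times higher than in plasma (2.21 to 3.94), above 61.9%. It was 11.1 times higher than in bile (7.92 to 16.0), above 92.4%, and 1.08 times its urine level (0.597 to 2.169), above 54.5%. Against the typical miRNA listed in both libraries, both names stood higher in semen than in serum, plasma and bile. Both were close to level with urine. The urine median rests only on miRNAs that reached 10 counts there, which is 377 CPM, so it leans towards miRNAs high in urine. The same limit holds below for urine against serum, plasma and bile. The names were picked as high in semen, so their places against the median are a description. That they do not change with the scaling holds by construction and adds no support.

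The rank within a library likewise does not change with the scaling. miR-532-5p was 22nd of 174 listed miRNAs in semen, 51st of 180 in serum, 73rd of 161 in plasma, 27th of 84 in urine and 66th of 179 in bile. miR-500 was 74th in semen, 103rd in serum, 105th in plasma and 80th in urine, and stood at 78.8% of the list in bile. As a part of the listed miRNAs both stood nearest to the top in semen, at 12.6% and 42.5% of the list. The length of a list depends on depth, since 10 counts are 4.38 CPM in semen, 21.1 in serum and 377 in urine. Percentages of the lists are therefore not on an equal footing, least of all for the short urine list. miR-362 was 111th and miR-532-3p 157th in semen.

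**Figure D3:**
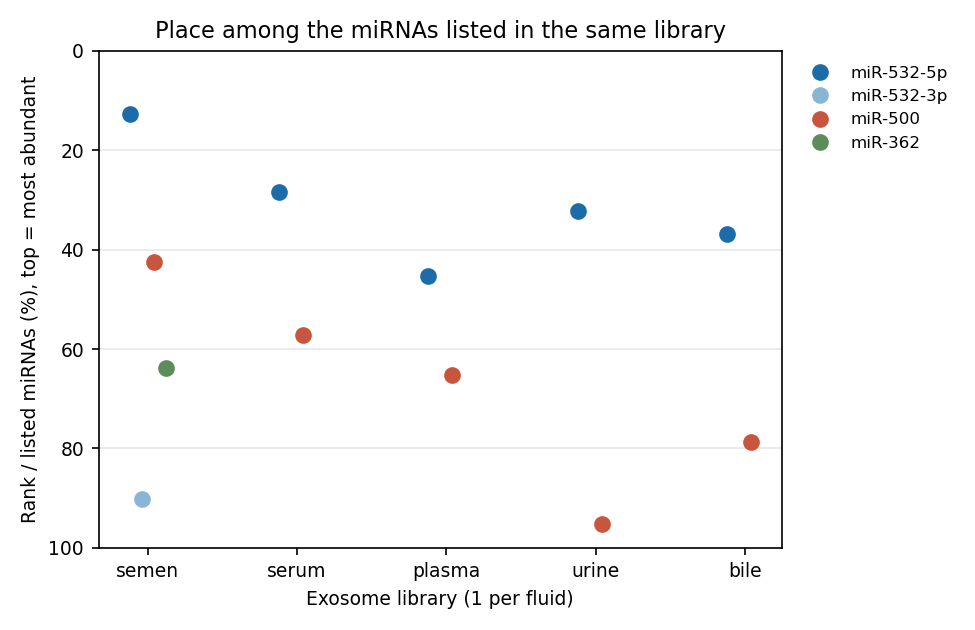
Rank of each name as a percent of the miRNAs listed above 0 in the same library, with the most abundant miRNAs at the top of the axis. miR-532-5p stands at 12.6% in semen and 45.3% in plasma, and names listed at 0 are not drawn.

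Contrasts among serum, plasma, urine and bile do not involve the semen library, although being high in semen was judged against these fluids too. Of the 4 names 2, miR-532-5p and miR-500, had values there. In CPM both were at least 2-fold higher in serum than in plasma, which 71.8% of all miRNAs were. The serum level of miR-532-5p was 15.1 times that of plasma (12.7 to 18.03) and that of miR-500 4.52 times (3.21 to 6.41). For miR-532-5p this ratio was 1.53 under TMM and 1.48 under DESeq2 size factors, both short of 2-fold, and 4.21 in RPM. Relative to the median miRNA of that pair, miR-532-5p was 2.55 times higher in serum (2.15 to 3.04), while miR-500 stood at 0.762 times (0.542 to 1.08). The direction for miR-500 turned with the scaling, to 0.457 under TMM and 0.443 under DESeq2 size factors.

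Bile stood below serum for both names under each of the 5 scalings. miR-532-5p in bile was 0.158 times its serum level in CPM (0.142 to 0.176) and 0.562 times in RPM, and miR-500 was 0.102 times in CPM (0.0675 to 0.150) and 0.361 times in RPM. In CPM 56% of all miRNAs were at least 2-fold higher in serum than in bile. Relative to the median miRNA, bile held miR-532-5p at 0.418 times (0.375 to 0.465) and miR-500 at 0.269 times (0.178 to 0.397) of serum.

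Bile and plasma split the names. In CPM miR-532-5p was 2.39 times higher in bile than in plasma (1.99 to 2.88), as 46.5% of all miRNAs were at 2-fold. miR-500 was at 0.460 times its plasma level in bile (0.293 to 0.714), and 30.5% of all miRNAs were at least 2-fold higher in plasma. Relative to the median, miR-532-5p did not differ beyond counting error, at 0.908 times (0.758 to 1.09), and miR-500 was at 0.175 times (0.111 to 0.271). The CPM direction for miR-532-5p turned with TMM, to 0.461 times, and with DESeq2 size factors, to 0.361 times.

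Urine stood above plasma and bile in CPM for both names. miR-532-5p in urine was 26.6 times plasma (20.3 to 34.5) and 11.1 times bile (8.82 to 13.9), and miR-500 was 8.86 times plasma (4.18 to 17.1) and 19.3 times bile (8.85 to 38.7). At 2-fold, 37.8% of all miRNAs were higher in urine than in plasma and 21.9% higher in urine than in bile. Against serum miR-532-5p was 1.76 times higher (1.41 to 2.175) and miR-500 1.96 times (0.949 to 3.66), neither at 2-fold, which 18.5% of all miRNAs reached. The levels over plasma moved most under other scalings of the miRNA counts: for miR-532-5p the ratio was 2.37 under TMM and 3.21 under DESeq2 size factors, and for miR-500 it was 0.790 and 1.07. In RPM urine was instead below all 3: miR-532-5p was 0.0967 times serum, 0.407 times plasma and 0.172 times bile, and miR-500 0.108, 0.136 and 0.299 times. Relative to the median miRNA, urine held miR-532-5p at 1.76 times serum (1.41 to 2.175), 2.996 times plasma (2.29 to 3.90) and 7.096 times bile (5.64 to 8.85). miR-500 stood at 1.96 times serum (0.949 to 3.66), which did not differ beyond counting error, and at 12.3 times bile (5.66 to 24.7). Against plasma miR-500 was itself the median of the 73 miRNAs above 0 in both libraries. Its value relative to the median is 1 there by construction and says nothing further.

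The proportion of miR-532-5p to miR-500 needs no scaling, since both counts come from the same library. It was 10.6 in semen (9.72 to 11.6), 9.54 in serum (7.76 to 11.8), 2.85 in plasma (2.08 to 3.96). It was 8.55 in urine (4.56 to 17.7) and 14.8 in bile (10.6 to 21.4). Plasma stood apart from the other fluids: its interval overlapped none of theirs. The semen proportion was 3.72 times that of plasma (exact conditional interval of the odds ratio 2.64 to 5.17), the serum proportion 3.35 times (2.25 to 4.92), the urine proportion 2.996 times (1.45 to 6.66) and the bile proportion 5.20 times (3.21 to 8.47). Semen did not differ beyond counting error from serum, at 1.11 times (0.880 to 1.40), from urine, at 1.24 times (0.596 to 2.34), or from bile, at 0.716 times (0.490 to 1.02). The bile proportion was 1.55 times that of serum (1.04 to 2.38).

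**Figure D4:**
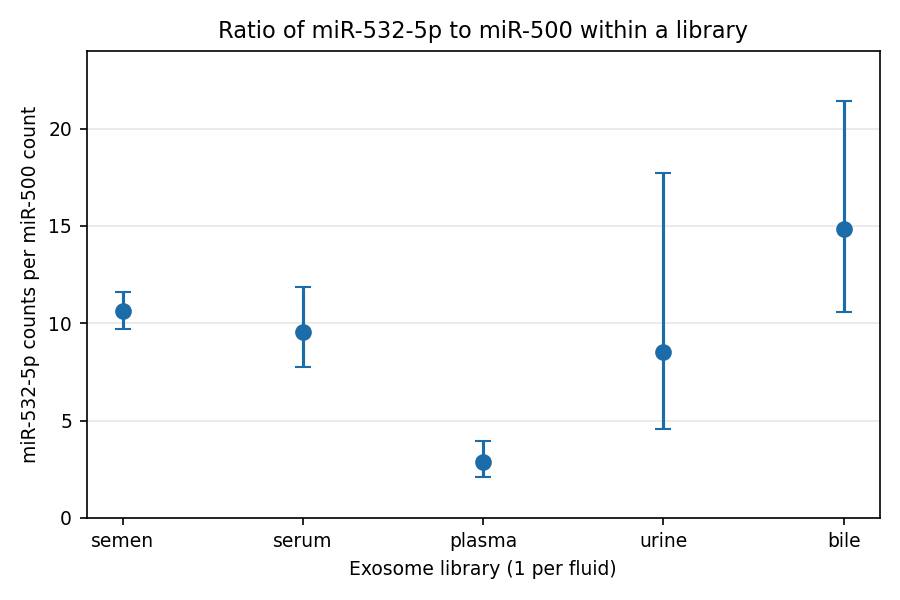
Counts of miR-532-5p for each count of miR-500 in each library, with 95% counting intervals. Plasma, at 2.85, lies below the other fluids, which run between 8.55 and 14.8.

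In plasma miR-532-5p made up 74.0% of the counts of the cluster, beside 89.7% in semen, 90.5% in serum, 89.5% in urine and 93.7% in bile. At the proportion seen in semen, plasma's 154 counts of miR-532-5p would go with 14.5 counts of miR-500, and 54 were listed. In the plasma library 1 miRNA, miR-378, took 41.4% of counts, which bears on shares of the library but not on this proportion. Reads of related miRNAs that resemble miR-500 could have been counted under its name, since how such reads were assigned is not stated, and their part in the plasma proportion was not tested.

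miR-362 was compared with its neighbours in the same way. In semen there were 57.5 counts of miR-532-5p (47.2 to 70.7) and 5.42 counts of miR-500 (4.37 to 6.76) for each count of miR-362. By its proportion to miR-532-5p, miR-362 would have had 16.6 counts in serum, 2.68 in plasma, 1.63 in urine and 9.29 in bile. By that to miR-500 it would have had 18.5 in serum, 9.97 in plasma, 2.03 in urine and 6.65 in bile, so serum alone passed the lowest listed count. With serum's listed 0 taken as 10 counts, its proportion of miR-532-5p to miR-362 was at least 95.4, and its counting interval began at 51.6. Once counting error is included, the proportion seen in semen lies within what a listed 0 allows in each of the other 4 fluids.

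Other miRNAs of chromosome X gave a measure of how common the pattern was there. By hairpin name 227 of the 237 miRNAs could be placed on a chromosome, and 27 had every placed hairpin on X. Among the 23 of these outside the cluster, 4 (17.4%) had their highest listed CPM in semen, beside 15.2% of all 237. All 4 were listed at 0 in urine, and with a listed 0 read as 10 counts 1 of the 23 (4.35%) was highest in semen, miR-676-3p, beside 5.06% of all. In RPM 12 of 23 (52.2%) were highest in semen, beside 35% of all, and 11 (47.8%) with a listed 0 read as 10 counts, beside 34.2%. The median log2 difference of semen from the median of the other fluids, on log2(CPM + 10) with a listed 0 entered as 0, was 0.50 for the 23 and 0.00 for all. It was 0.00 for both with TMM, 0.04 and 0.00 with DESeq2 size factors, 0.49 and 0.22 in RPM, and 0.99 and 0.17 without the most abundant miRNAs. The same 10 was added on every scale and weighs more where values are lower, so these differences are not on an equal footing.

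The profile over the 5 fluids was compared with those of 163 miRNAs that had at least 100 counts in a library. The measure was the Euclidean distance to the mean centred log2(CPM + 10) profile of miR-532-5p, miR-500 and miR-362. The nearest were miR-99a at 1.67, miR-221-3p at 1.77, miR-29a at 2.04, miR-191 at 2.18 and miR-7 at 2.18. The names behind the mean lay at 1.66 (miR-532-5p), 1.16 (miR-500) and 2.28 (miR-362) from it. miR-362 was thus farther from the mean than all 5 of the nearest miRNAs. miR-362 entered through its 101 semen counts and its 4 listed 0s, read as 0, so that it shapes this mean without a measured profile of its own. With the mean of miR-532-5p and miR-500 alone, the nearest was miR-7 at 1.85, followed by miR-99a at 2.12, and 3 of the 5 stayed among the first 5. miR-99a had 113027 counts in semen, 23134 in serum, 6842 in plasma, 1086 in urine and 42420 in bile. The points are 5 libraries that share their totals, and the order of the nearest miRNAs changed with the measure: 0 of these 5 were among the first 5 by Pearson correlation, where miR-10b came first, or with the authors' RPM, where miR-28-5p came first. The same 10 was added to RPM, where it weighs more because levels are lower. For miR-532-5p alone, in CPM, the nearest was miR-30d at 1.72, and again 3 of the 5 stayed.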

How the data were processed

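Exosomes were isolated with a reagent kit and RNA extracted with Trizol, per the labels' protocols, and small RNA was gel-purified, ligated, reverse transcribed, amplified and sequenced. For 1 library of each of the 5 fluids, the deposited table lists 411 mature miRNA names, their read counts and a normalized column. The latter is RPM, computed by the authors against a larger library total: within a library all deposited counts stood in the same proportion to RPM, to within 0.00461%. The submitters' processing notes name bcl2fastq 2.17 and the genome build Sscrofa10.2. The sources used here give no aligner, miRNA annotation or treatment of multiply matching reads, and instruments are named inconsistently in the labels.

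From the counts, shares, CPM and exact 95% intervals (Clopper-Pearson for shares, conditional binomial for ratios) were computed with Python 3.11.15 and scipy 1.17.1. A check of the ratio interval simulated counting error only, with the semen and serum totals and miRNAs of at least 100 serum counts. Smaller counts and the urine library were not covered by it. A listed 0 was taken as 10 counts for bounds. The fold limit was 2, over miRNAs reaching 10 counts in 1 of the compared libraries. TMM (edgeR 4.0.16) and DESeq2 1.42.0 scaled libraries only; no count model was tested. Gene order, chromosomes and the CLCN5 span came from RefSeq's Sscrofa11.1 annotation. Start and end positions were used for this but are not printed here. The planned search for miRNAs sharing a seed with the 4 names was not run. Depth was 26522 to 2284926 counts. Named miRNAs are the 4 names, the 5 nearest profiles, fluid markers and leading miRNAs; miR-676-3p, and miR-10b, miR-28-5p and miR-30d as first of other likeness measures, were chosen after their values were seen. Members and lists were chosen with earlier results of these data known.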

Additional observations from a re-analysis of the deposited data

How the results depend on the processing

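No paired analysis was possible because each fluid had 1 library, and for the same reason no replicate could be left out. The level of miR-532-5p in semen over the highest other fluid, 0.717 times urine in CPM, turned to 1.42 with TMM, 1.08 with DESeq2 size factors, 1.18 without the most abundant miRNAs, 5.97 (over serum) in RPM and 1.26 (over serum) with urine left out, and stayed at 0.717 with plasma left out. For miR-500, 0.577 times urine and within counting error of 1, RPM gave 5.36 over serum, and the other alternatives ran from 0.577 to 1.13. For miR-362 the lower bound of 0.117 times urine, which leaves the direction unknown, moved to 6.74 in RPM, 2.09 with urine left out and 0.391 with a listed 0 taken as 3 counts. The number of miRNAs highest in semen, 36 of 237, moved to 83 in RPM, to 12 in CPM with a listed 0 read as 10 counts, added after the data were seen, and was 24 of 166 at a minimum of 100 counts. That number was 42 with TMM, 47 with DESeq2 size factors and 53 without the most abundant miRNAs. Between single pairs of fluids, 16 of 80 recomputed ratios of miR-532-5p and miR-500 turned from a CPM ratio beyond counting error to the other side of 1, and for 5 of the 16 the new interval held 1. A further 3 turned from a CPM ratio within counting error: for miR-500, semen over urine came to 1.15 (TMM) and 49.7 (RPM) and urine over serum to 0.108 (RPM). For miR-532-5p, semen over urine came to 1.42 (TMM), 1.08 (DESeq2), 1.18 (without the most abundant miRNAs) and 61.7 (RPM), bile over plasma to 0.461 (TMM) and 0.361 (DESeq2), and in RPM urine came to 0.0967 times serum, 0.407 times plasma and 0.172 times bile. For miR-500, semen over plasma came to 0.905 (TMM) and 0.935 (DESeq2), serum over plasma to 0.457 (TMM) and 0.443 (DESeq2), urine over plasma to 0.790 (TMM) and 0.136 (RPM), and urine over bile to 0.299 (RPM). These alternatives change the library total by construction, and the proportions between names within a library do not depend on it. The urine depth of 26522 counts limits what can be said of miR-362 and miR-532-3p there.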
